A study of Rattus norvegicus with 16 samples.

Results

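The diaphragms of 4 ventilated rats that also had a sham operation (S-V12) were compared with those of 4 rats ventilated without it (V12). These are 8 of the 16 arrays of the series, 1 array per rat, taken by their group labels alone. In S-V12 rats the abdomen was opened in the midline, silver hook electrodes were placed in the rib portions of the diaphragm on both sides, and no current was given during 12 h of ventilation. V12 rats were ventilated for the same 12 h with neither an abdominal operation nor electrodes. All ventilated rats had a tracheostomy, isoflurane followed by urethane, and atropine. The other rats of the series were stimulated through such electrodes while ventilated (E-V12), or were not ventilated, their diaphragms being taken just after anesthesia was given (CON). All were male Wistar rats, 14 to 16 weeks old. Supplemental oxygen was given, by the study's methods, to the rats with an abdominal operation (S-V12, E-V12) and not to V12 rats, so in S-V12/V12 the incision, the electrodes and the oxygen cannot be told apart. By the study's methods the tissue around the electrodes was removed as the array specimen was prepared and muscle of the whole diaphragm was minced, which does not settle whether the tissue at the electrodes was assayed. In such bulk RNA, fewer cells of a type and less RNA per cell cannot be told apart.

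The diaphragm is a muscle of mixed fiber types that contracts throughout life and depends on oxidative metabolism. In the acute-phase response to injury, interleukin-6 (IL-6) and related cytokines bind receptors that share the subunit gp130. Kinases of the JAK family then phosphorylate the transcription factor STAT3, which induces acute-phase proteins together with its own inhibitor SOCS3. Injury and mechanical load also induce immediate early genes, many of which encode short-lived transcription factors. The S-V12/V12 comparison asks how far the operation needed to place the electrodes changed the muscle without any stimulation.

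The arrays carried 23188 transcript clusters (the array's unit for a gene), with values given as log2 signals, so that each unit of difference is a factor of 2. As a check of the tissue, the summed signal of 10 muscle fiber markers was 22.85 to 22.88 in S-V12 and 22.83 to 22.87 in V12, and some of them, such as the skeletal actin gene Acta1, lay at the top of the scale, where no difference can be read. A gene is called below background on an array where it did not exceed the highest of the array's background rows, which averaged 6.48 ± 0.13 in S-V12 and 6.48 ± 0.09 in V12 (SD, n = 4 each). The percentage of clusters above that level was 38.09 to 40.88 in S-V12 and 38.74 to 40.74 in V12. V12 replicate 1 stood farthest from the other arrays of its group, by a root mean square of 0.457 on the log2 scale, against 0.362 to 0.420 for the other V12 arrays and 0.367 to 0.385 for the S-V12 arrays.

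Of the 23188 clusters, 1866 (8.05%) were higher and 1544 (6.66%) lower in S-V12 than in V12 at an adjusted p under 0.05 (limma, Benjamini-Hochberg over all clusters), and 2245 were higher and 1206 lower when the arrays were centred on their medians. At the thresholds of the study's methods, a fold of at least 2 with an unadjusted p under 0.05, 897 (3.87%) were higher and 556 (2.4%) lower. Of the clusters called by adjusted p, 116 were higher by 4-fold or more and 23 by 8-fold or more, while 15 were lower by 4-fold or more and 0 by 8-fold or more. The arrays of the groups did not overlap in 4600 clusters (19.8%). Among the 6372 gene symbols above background on all arrays of at least 1 of the groups, called expressed symbols here, 19.9% were higher and 11.7% lower, with a median difference of 0.09. Counts in lists of well-expressed genes are best read beside these shares. A list whose rising share lay near or under 19.9% rose no more often than expressed symbols in general. The count of such a list is not read here as a result about it. Over all 15037 gene symbols, below background or not, 9.44% were higher and 6.27% lower. Lists count their members below background too, so neither share is an exact reference for them. Clusters without a gene symbol made up 445 of the higher and 599 of the lower calls. Among the genes whose differences are given, 22 calls were lost under the methods' t-test with the same adjustment, those of Rrad, Egr1, Serpina3n, Socs2, Timp1, Spp1, Hmox1, Nupr1, Hspb1, Cycs, Mrpl19, Asb2, Decr1, Etfb, Ankrd1, Lmcd1, Runx1, Cd14, Hba-a1, Hba-a3, Sgk1 and Bhlhe40.

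The 15 named genes with the largest rise after the sham operation held regulators of cytokine signaling and clotting, matrix proteins and transporters. They were ranked by their difference among called genes whose groups do not overlap, so neither property is support for them. Socs3, which encodes the inhibitor of JAK and STAT signaling, came first, followed by Thbd (thrombomodulin, an endothelial receptor for thrombin) and Thbs1 (thrombospondin-1, a matrix protein released by platelets and injured tissue). The log2 signal of Socs3 was 13.29, 11.77, 12.82 and 10.85 in S-V12, against 6.73, 6.36, 7.31 and 6.99 in V12. All S-V12 arrays lay well above all V12 arrays, and the difference of 5.33 ± 0.49 (SE from the model, n = 4 per group) was a 40.3-fold rise (adjusted p = 5.46e-07). Thbd had 15.23, 14.62, 15.08 and 13.76 in S-V12, against 7.80, 9.63, 10.59 and 10.33 in V12. Its V12 replicate 1 was lowest, and Thbd rose by 5.08 ± 0.47 (adjusted p = 5.38e-07), or by 4.49 without that array. Thbs1 had 14.62, 11.27, 11.40 and 11.10 in S-V12, against 6.08, 8.90, 7.49 and 7.53 in V12. S-V12 replicate 1 stood far above its group, and the rise of 4.60 ± 0.64 (adjusted p = 3.82e-05) was 3.76 without it.

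**Figure D1:**
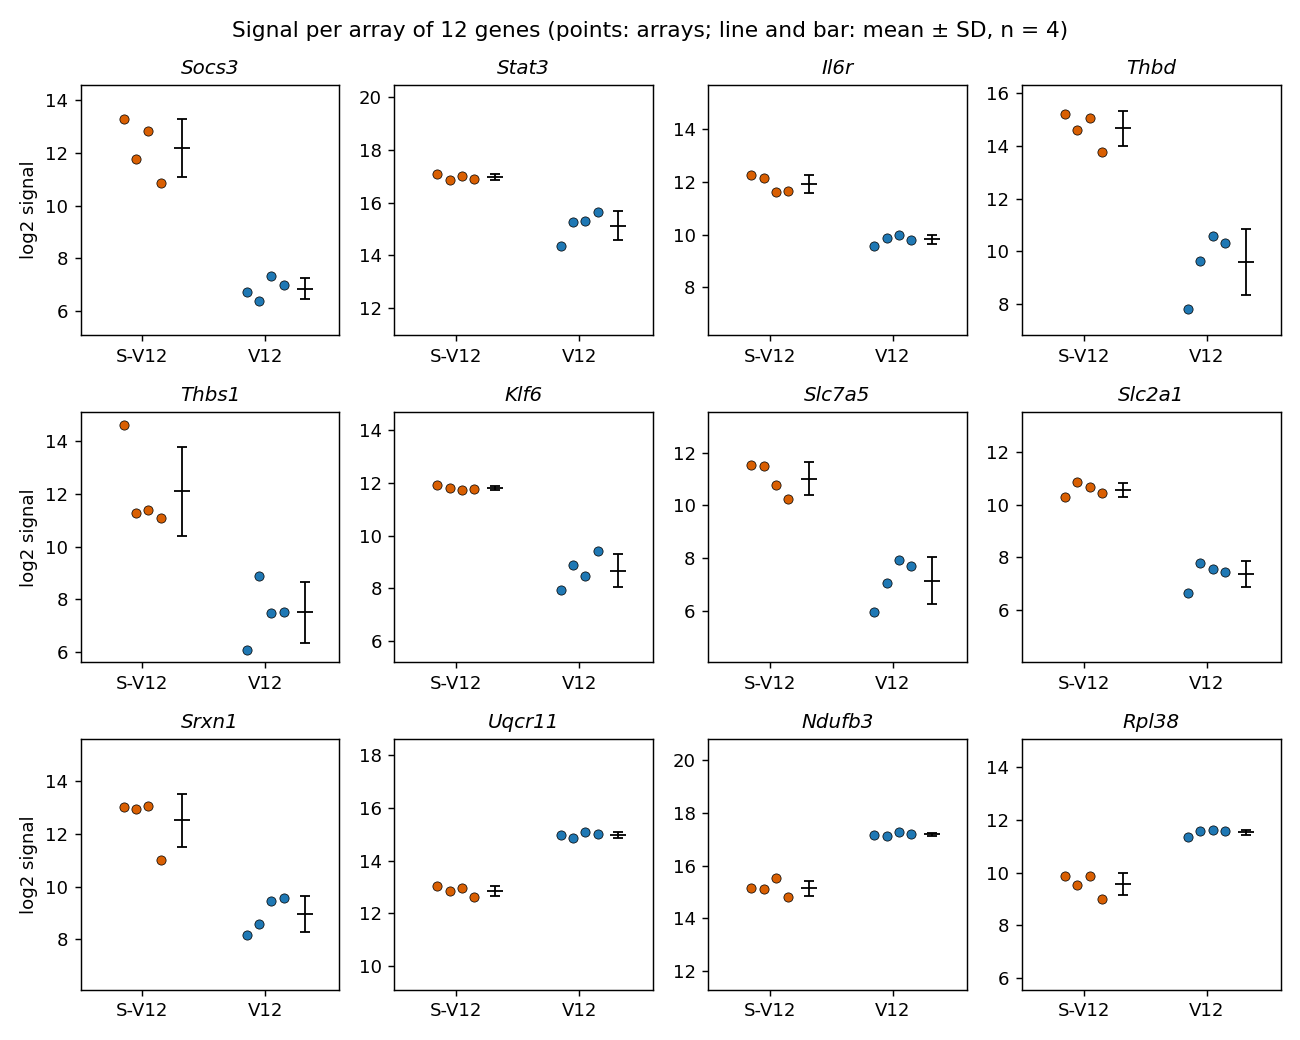
Log2 signal (y axis, the same height in log2 units in every panel) of 12 genes on each S-V12 array (orange, left) and V12 array (blue, right), with the group mean and SD beside the points (n = 4 each). The groups do not overlap in any of the 12 panels, which was a condition for the genes among the largest changes. For Thbs1, S-V12 replicate 1 lies far above the other 3 arrays of its group.

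Of the 15, Ptx3, Cd93 and Vcan were below background on every V12 array, so that their rise has only a lower bound, the mean of the S-V12 arrays over the highest background row of the V12 arrays or the gene's own signal there, whichever was higher. Ptx3, a pentraxin made at sites of inflammation, had 9.90, 8.51, 10.26 and 8.20 in S-V12, against 4.03, 5.84, 5.81 and 4.91 in V12, and was at least 6.69-fold higher. Cd93, a receptor of endothelium and myeloid cells, had 9.35, 9.15, 9.40 and 9.12 in S-V12, against 5.74, 5.22, 5.63 and 4.71 in V12, and was at least 6.87-fold higher. Vcan (versican, a proteoglycan of provisional matrix) was at least 3.49-fold higher. The other 9 included the carriers Slc39a14 (ZIP14, which imports zinc and iron) and Slc7a5 (LAT1, for large neutral amino acids), which rose 16.0-fold and 14.5-fold. Ehd4, of membrane trafficking, rose 16.3-fold, Pvr, an adhesion protein known as the poliovirus receptor, 12.0-fold, and Scn3b, a beta subunit of sodium channels, 14.4-fold. The log2 signal of Slc39a14 was 16.95, 16.98, 16.62 and 17.13 in S-V12, against 11.27, 13, 13.40 and 14.02 in V12. Rrad, a small GTPase that restrains calcium channels, had 13.93, 13.22, 15.51 and 14.60 in S-V12, against 7.90, 12.03, 11.91 and 11.38 in V12. It rose by 3.51 ± 0.77 (adjusted p = 0.00286), and by 2.54 without V12 replicate 1. The remaining 3 were Srxn1, Klhl40 and Egr1, which are described with their groups.

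Among IL-6 and STAT3 pathway genes, 20 of 36 measured members rose and 1 fell, with a median difference of 0.95, against a median of -0.05 over all clusters. The ligand gene Il6 was below background on all 8 arrays, with 5.53, 4.90, 5.23 and 5.58 in S-V12, against 4.34, 4.55, 3.91 and 4.48 in V12. Its difference of 0.99 ± 0.22 passed the test (adjusted p = 0.00349), and no fold is given for a signal that background also reaches. The member that fell, Osm (oncostatin M, a ligand of the same family), was below background on all 8 arrays too. It was lower by 0.57 ± 0.19 (adjusted p = 0.0483), a call lost when any 1 of the 8 arrays was left out (adjusted p between 0.0589 and 0.121). Among the receptors, Il6r, the IL-6 binding subunit, had 12.27, 12.13, 11.60 and 11.65 in S-V12, against 9.58, 9.88, 9.99 and 9.81 in V12, a rise of 2.10 ± 0.24 (4.28-fold, adjusted p = 4.24e-06). Il6st, which encodes gp130, rose by 1.55 ± 0.19 and Osmr, the oncostatin M receptor subunit, by 1.48 ± 0.25. The leukemia inhibitory factor receptor gene Lifr did not pass (adjusted p = 0.734). Downstream of them Jak2 averaged 12.61 ± 0.14 in S-V12 and 11.71 ± 0.35 in V12 (SD) and rose by 0.90 ± 0.23 (SE, adjusted p = 0.0104). The kinase genes Jak1 and Tyk2 of the same family did not pass (adjusted p = 0.051 and 0.366). Stat3 had 17.08, 16.84, 17.02 and 16.90 in S-V12, against 14.35, 15.25, 15.29 and 15.63 in V12. All its S-V12 arrays were above all V12 arrays, and it rose by 1.83 ± 0.24 (3.55-fold, adjusted p = 1.56e-05).

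The members that rose included STAT3 targets and acute-phase genes, which are best known from liver. Serpina3n, a serine protease inhibitor, had 14.79, 13.79, 11.74 and 13.42 in S-V12, against 11.57, 10.66, 10.68 and 9.43 in V12, a rise of 2.85 ± 0.53 (7.2-fold, adjusted p = 0.000672). Fgg, the fibrinogen gamma chain, had 12.65, 13.49, 12.44 and 13.92 in S-V12, against 9.57, 11.01, 11.04 and 10.79 in V12, and rose by 2.52 ± 0.52 (adjusted p = 0.0017). Fga, the alpha chain of the same protein, was below background on every V12 array and at least 1.61-fold higher. Fgb, the beta chain, did not pass (adjusted p = 0.541). Neither did the acute-phase genes Hp, Orm1 and Cp (adjusted p = 0.299, 0.09 and 0.793). Lbp, which binds lipopolysaccharide, rose by 2.30 ± 0.42 and Socs2, a further inhibitor of cytokine receptors, by 1.75 ± 0.30. Timp1, an inhibitor of matrix metalloproteinases, had 12.04, 11.95, 10.91 and 11.82 in S-V12, against 6.84, 10.39, 10.22 and 9.23 in V12. It rose by 2.51 ± 0.57 (adjusted p = 0.00411), and by 1.73 without V12 replicate 1, its lowest array. Cebpd, a transcription factor of the acute phase, averaged 13.71 ± 0.21 in S-V12 and 13.54 ± 0.20 in V12 (SD) and did not pass (adjusted p = 0.709). Of 9 liver markers, 8, among them albumin (Alb) and Apoa1, were below background on all 8 arrays.

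Promoter windows are shown for 1 gene of each of 4 groups that rose, because the transcription factors named here bind motifs of known letters. The windows run from 250 bases before to 50 bases after the annotated start of each gene, on the coding strand, in RefSeq's GRCr8 table, with the motif in capitals. Serpina3n, of the acute-phase genes, lies at chr6:129088142-129088441 (+ strand), and the STAT motif TTCNNNGAA begins at position -123 from the start.
Serpina3n: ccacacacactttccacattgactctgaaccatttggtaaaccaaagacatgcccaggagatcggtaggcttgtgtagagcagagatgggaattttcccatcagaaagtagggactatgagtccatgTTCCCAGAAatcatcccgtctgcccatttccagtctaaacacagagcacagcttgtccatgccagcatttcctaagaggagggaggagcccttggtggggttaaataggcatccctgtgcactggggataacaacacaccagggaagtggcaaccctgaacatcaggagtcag
Dusp1, a phosphatase that ends MAP kinase signaling and stands here for the immediate early genes, lies at chr10:17184603-17184902 (+ strand), with the cyclic AMP response element TGACGTCA at -124.
Dusp1: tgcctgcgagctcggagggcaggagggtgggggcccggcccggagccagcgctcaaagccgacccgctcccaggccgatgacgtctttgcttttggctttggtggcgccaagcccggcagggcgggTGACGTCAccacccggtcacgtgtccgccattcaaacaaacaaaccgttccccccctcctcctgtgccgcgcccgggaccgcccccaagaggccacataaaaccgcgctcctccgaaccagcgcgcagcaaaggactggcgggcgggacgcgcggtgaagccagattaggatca
Srxn1, of the oxidative stress genes, encodes sulfiredoxin and lies at chr3:161064562-161064861 (+ strand), with the AP-1 motif TGANTCA at -62 and at -5.
Srxn1: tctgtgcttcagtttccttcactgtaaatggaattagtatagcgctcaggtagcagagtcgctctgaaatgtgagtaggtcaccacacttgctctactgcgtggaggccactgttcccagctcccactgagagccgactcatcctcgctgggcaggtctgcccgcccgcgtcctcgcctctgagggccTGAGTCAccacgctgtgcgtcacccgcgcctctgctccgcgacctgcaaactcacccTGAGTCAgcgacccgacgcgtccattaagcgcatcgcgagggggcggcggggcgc
Slc2a1, the glucose transporter GLUT1, lies at chr5:138002272-138002571 (+ strand), with the hypoxia response core ACGTG at -51.
Slc2a1: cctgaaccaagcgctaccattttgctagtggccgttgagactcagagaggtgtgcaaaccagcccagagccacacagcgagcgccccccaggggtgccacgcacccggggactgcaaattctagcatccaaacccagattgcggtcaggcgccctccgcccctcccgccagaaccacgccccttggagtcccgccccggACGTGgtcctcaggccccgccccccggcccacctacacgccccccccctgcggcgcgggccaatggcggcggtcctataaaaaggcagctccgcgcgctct
Searched on both strands, the STAT motif was in 8.87% of all 33469 promoter windows and in 3 of the 16 windows at hand for the 20 IL-6 and STAT3 members that rose. The cyclic AMP response element was in 1.83% of all windows and in 4 of 12 for the immediate early genes that rose. AP-1 was in 7.33% of all windows, in 1 of 8 for the oxidative stress genes that rose and in 0 of 8 for the matrix genes that rose. ACGTG, a short motif, was in 19.3% of all windows and in 5 of 9 for the hypoxia and glucose uptake genes that rose. A match is a run of letters and not a bound site.

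Of 30 immediate early genes, 17 rose and 0 fell, with a median difference of 1.17. Klf6, a zinc finger factor of tissue injury, had 11.93, 11.79, 11.74 and 11.78 in S-V12, against 7.94, 8.87, 8.46 and 9.41 in V12. Its S-V12 arrays lay close together, and the rise of 3.14 ± 0.26 was 8.82-fold (adjusted p = 3.33e-07). Egr1, another zinc finger factor, had 14.48, 14.73, 15.12 and 12.39 in S-V12, against 10.32, 9.18, 12.15 and 11.75 in V12. Its S-V12 replicate 4 was the lowest of its group and still above all V12 arrays, and the rise of 3.33 ± 0.62 (adjusted p = 0.000686) was 3.93 without it and 2.77 without V12 replicate 2. The AP-1 subunit gene Fos had 10.70, 10.31, 11.02 and 9.96 in S-V12, against 7.97, 8.27, 9.13 and 8.49 in V12, a rise of 2.03 ± 0.31 (4.08-fold, adjusted p = 9.55e-05). Its partners Junb, Jund and Jun rose by 2.19 ± 0.34, 1.22 ± 0.22 and 1.11 ± 0.28, and Fosl2, a Fos relative, by 1.37 ± 0.24. Myc, a growth factor-induced transcription factor, rose by 1.98 ± 0.33 and Maff, a small MAF protein, by 2.05 ± 0.27. Phosphatases that switch off MAP kinases rose with them, Dusp5 by 2.51 ± 0.33 and Dusp1 by 1.99 ± 0.44. Mapk14, the stress kinase p38 alpha, which is not an immediate early gene, had 16.63, 16.58, 16.51 and 16.80 in S-V12, against 14.51, 15.30, 15.33 and 15.39 in V12, and rose by 1.5 ± 0.20 (adjusted p = 2.29e-05).

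Among 34 NF-kB targets, chemokines and adhesion molecules, 7 (20.6%, against 19.9% of expressed symbols) rose and 0 fell, with a median of 0.34. Tnfrsf1a, the main receptor of tumor necrosis factor, had 11.51, 11.30, 10.64 and 11.09 in S-V12, against 9.03, 9.30, 10.21 and 9.45 in V12, and rose by 1.64 ± 0.26 (adjusted p = 0.000132). Zc3h12a, an endonuclease that degrades cytokine mRNAs, rose by 1.5 ± 0.24 and the NF-kB subunit gene Rela by 0.91 ± 0.22.

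Of 42 matrix and wounding genes, 9 (21.4%, against 19.9% of expressed symbols) rose and 0 fell, with a median of 0.17. Besides Thbs1, Vcan and Timp1 these were Cd44 (the hyaluronan receptor), Ccn1 (a matricellular protein), Fn1 (fibronectin), Adamts1 (a protease that cuts versican), Tnc (tenascin C, below background on all V12 arrays) and Spp1 (osteopontin, below background on all 8 arrays, its call lost without S-V12 replicate 2 or 4 or any V12 array, at an adjusted p between 0.0508 and 0.199). Cd44 had 9.27, 9.38, 9.46 and 8.57 in S-V12, against 6.15, 7.22, 6.71 and 6.66 in V12, a rise of 2.49 ± 0.33 (adjusted p = 2.24e-05). Fn1 had 12.76, 13.62, 12.26 and 13.36 in S-V12, against 11.30, 10.62, 11.57 and 10.29 in V12, and rose by 2.06 ± 0.31 (adjusted p = 7.43e-05). Ccn1 and Adamts1 rose by 2.19 ± 0.29 and 1.99 ± 0.24. Of 24 hemostasis genes, 4 (16.7%, against 19.9% of expressed symbols) rose and 0 fell. The 4 were Thbd, Thbs1, Anxa2 (annexin A2, a cell surface receptor for plasminogen, by 1.56 ± 0.39) and Selp (P-selectin, below background on all 8 arrays, its call lost without S-V12 replicate 1 or 2 or V12 replicate 3, at an adjusted p between 0.058 and 0.0745). Among 29 genes of vascular growth, 3 (10.3%, against 19.9% of expressed symbols) rose and 1 fell, and 7 rose without V12 replicate 1. Angpt2 (angiopoietin-2, which destabilizes vessels) had 8.74, 9.08, 9.51 and 9.85 in S-V12, against 6.39, 6.75, 7.20 and 7.30 in V12, and rose by 2.39 ± 0.24. Vegfc, a growth factor of lymphatic vessels, was below background on all S-V12 arrays and at least 2.05-fold lower there.

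**Figure D2:**
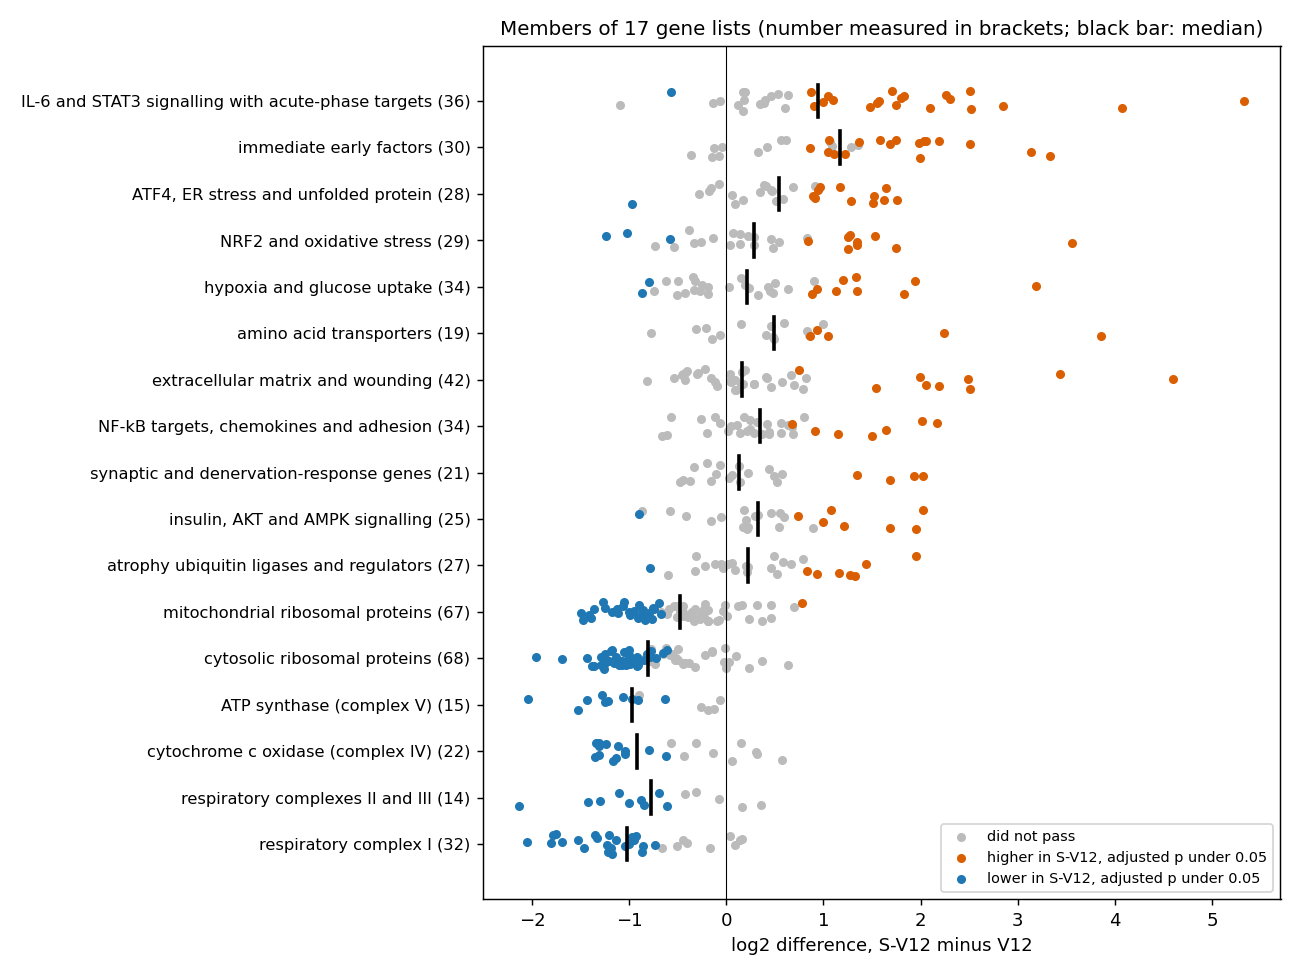
Log2 difference, S-V12 minus V12 (x axis), of each measured member of 17 gene lists (rows, number of members in brackets), with called members in color and the list median as a black bar. Medians run up to 1.17 for the immediate early list and down to -1.02 for respiratory complex I, and 0 members of the 4 respiratory lists are called higher.

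Of 34 hypoxia and glucose uptake genes, 9 (26.5%, against 19.9% of expressed symbols) rose and 2 fell. Slc2a1, whose product GLUT1 takes up glucose without insulin, had 10.27, 10.86, 10.66 and 10.43 in S-V12, against 6.66, 7.79, 7.54 and 7.46 in V12. The groups lay far apart, and the rise of 3.19 ± 0.33 was 9.13-fold (adjusted p = 1.37e-06). The hypoxia-inducible factor genes Hif1a and Epas1 rose by 1.34 ± 0.26 and 1.94 ± 0.29, and the glycolytic genes Hk2 (hexokinase 2) and Pfkfb3 (which makes an activator of glycolysis) by 1.83 ± 0.26 and 1.33 ± 0.24. The members that fell, Pgk1 (a glycolytic enzyme) and Bnip3l (a receptor for the removal of mitochondria), were lower by 0.87 ± 0.19 and 0.80 ± 0.17 on the log2 scale. Of 19 amino acid transporters, 5 (26.3%, against 19.9% of expressed symbols) rose and 0 fell. Slc7a5 had 11.54, 11.49, 10.77 and 10.23 in S-V12, against 5.94, 7.05, 7.92 and 7.68 in V12, and rose by 3.86 ± 0.36 (adjusted p = 6.42e-07). Slc3a2, the heavy chain with which it pairs, rose by 0.93 ± 0.18, the taurine carrier Slc6a6 by 2.24 ± 0.26 and the glutamine carrier Slc38a2 by 1.05 ± 0.22. The last of them, Slc1a4, was below background on all 8 arrays, and its call was lost without S-V12 replicate 1 or 4 (adjusted p = 0.0603 and 0.0536).

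Oxidative stress genes moved both ways, 9 of 29 (31%) up and 3 (10.3%) down, against 19.9% and 11.7% of expressed symbols. The transcription factor gene Nfe2l2 (NRF2) had 11.47, 11.53, 11.68 and 11.20 in S-V12, against 9.57, 10.55, 10.56 and 10.18 in V12, a rise of 1.25 ± 0.23 (adjusted p = 0.000693). Srxn1, which repairs oxidized peroxiredoxins, had 13.01, 12.96, 13.07 and 11.02 in S-V12, against 8.18, 8.58, 9.47 and 9.59 in V12. S-V12 replicate 4 lay below its group and above all V12 arrays, and Srxn1 rose by 3.56 ± 0.40 (11.8-fold, adjusted p = 4.24e-06). Further NRF2 targets, Txnrd1 (thioredoxin reductase), Gclm (of glutathione synthesis) and Nqo1 (a quinone reductase), rose by 1.75 ± 0.28, 1.53 ± 0.26 and 1.27 ± 0.25, and Hmox1, which breaks down heme, by 1.35 ± 0.34. The 3 that fell encode enzymes that remove oxidants. Cat (catalase), also such an enzyme, was among the 9 that rose, and Sod2, Gpx1, Gpx3 and Prdx1 did not pass. Sod1, the cytosolic superoxide dismutase, had 11.12, 11.01, 11.03 and 10.90 in S-V12, against 11.84, 12.23, 11.94 and 12.12 in V12, and fell by 1.02 ± 0.17 (adjusted p = 0.000332). Gpx4, which reduces lipid peroxides, fell by 1.24 ± 0.21 and Prdx6, a peroxiredoxin, by 0.58 ± 0.17 (adjusted p = 0.0207, and 0.0761 without S-V12 replicate 4).

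Of 28 genes of ATF4 and the unfolded protein response, 11 rose and 1 fell, with a median of 0.54. The sensors of the endoplasmic reticulum Atf6 and Ern1 (IRE1) rose by 1.64 ± 0.19 and 1.51 ± 0.22. The chaperone gene Hspa5 (BiP) had 17.73, 17.78, 17.97 and 17.71 in S-V12, against 16.51, 16.73, 16.49 and 16.78 in V12, a rise of 1.17 ± 0.20 (adjusted p = 0.000268). Hsp90b1, the HSP90 of the same compartment, rose by 1.28 ± 0.27, and Ppp1r15a (GADD34), which lets translation restart, by 1.76 ± 0.24. The member that fell, Nupr1, a stress-induced nuclear protein, was below background on all S-V12 arrays and above it on 2 of 4 V12 arrays, and its call was lost without S-V12 replicate 1 (adjusted p = 0.0591). Of 24 heat shock genes, 6 (25%) rose and 4 (16.7%) fell, against 19.9% and 11.7% of expressed symbols. Without S-V12 replicate 1 or 2 or V12 replicate 2 or 4, 2 fell. Hspb1 (HSP27) and Hspa4 (of the HSP110 family) rose by 1.36 ± 0.35 and 0.98 ± 0.18, while Hspe1, the co-chaperonin of mitochondria, was lower by 0.80 ± 0.21.

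Nuclear genes of the respiratory chain fell, 55 of 83 lower and 0 higher, with a median difference of -0.97. By complex, 23 of 32 fell in complex I, 9 of 14 in complexes II and III (cytochrome c included), 13 of 22 in cytochrome c oxidase and 10 of 15 in ATP synthase. Ndufb3, an accessory subunit of complex I, had 15.13, 15.10, 15.51 and 14.80 in S-V12, against 17.16, 17.13, 17.28 and 17.18 in V12. Its V12 arrays lay close together and above all S-V12 arrays, and the difference of -2.05 ± 0.19 was a 4.15-fold fall (adjusted p = 6.42e-07). Uqcr11, a small subunit of complex III, had 13.03, 12.85, 12.95 and 12.61 in S-V12, against 14.98, 14.85, 15.11 and 15.01 in V12, a difference of -2.13 ± 0.19 (adjusted p = 4.23e-07). Atp5mc2, which encodes subunit c of the ATP synthase rotor, had 14.17, 14.05, 13.86 and 13.59 in S-V12, against 16.04, 15.78, 15.76 and 16.27 in V12, and fell by 2.04 ± 0.19 (adjusted p = 6.37e-07). These 3 were among the 15 named genes with the largest falls, for which separate groups were a condition and so no support. In cytochrome c oxidase, Cox6a2, an isoform of heart and skeletal muscle, had 18.02, 18.07, 17.90 and 17.80 in S-V12, against 19.13, 19.06, 19.09 and 19.03 in V12, and fell by 1.13 ± 0.16 (adjusted p = 5.95e-05). Sdhb, of succinate dehydrogenase, fell by 0.85 ± 0.17, and Cycs, cytochrome c, by 0.88 ± 0.20. The mean signal over the 83 genes was 12.90, 12.82, 13.08 and 12.66 on the S-V12 arrays, against 13.67, 13.74, 13.59 and 13.83 on the V12 arrays, with no overlap.

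Of 68 genes for proteins of the cytosolic ribosome, 37 fell and 0 rose, with a median of -0.81. Rpl38, of the large subunit, had 9.86, 9.54, 9.86 and 8.98 in S-V12, against 11.36, 11.56, 11.60 and 11.57 in V12, a difference of -1.96 ± 0.22 (3.89-fold lower, adjusted p = 3.74e-06). Rpl27 fell by 1.69 ± 0.26 and Rps29, of the small subunit, by 1.26 ± 0.24. Such genes have many near-identical pseudogenes, whose RNA the probes may not separate. Of 67 genes for the mitochondrial ribosome, 27 fell and 1 rose, with a median of -0.48. Mrpl21 fell by 1.5 ± 0.22. The 1 that rose, Mrpl19, did so by 0.78 ± 0.20 (adjusted p = 0.0106, and 0.0507 without V12 replicate 4). Of 22 genes for import into mitochondria, 8 fell and 1 rose, and 3 to 5 fell without S-V12 replicate 1, 2 or 4 or V12 replicate 2 or 4. Tomm7, of the outer membrane translocase, fell by 1.77 ± 0.24 and Dnajc19, of the inner membrane motor, by 1.80 ± 0.25.

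Other genes among the 15 with the largest falls came from several processes. Psenen (a gamma-secretase subunit) had 12.62, 12.82, 12.83 and 12.62 in S-V12, against 15.02, 14.82, 14.65 and 14.90 in V12, and was 4.36-fold lower (adjusted p = 3.74e-06). Tmod4 (a tropomodulin that caps thin filaments) had 12.68, 13.06, 13.11 and 12.64 in S-V12, against 15.11, 15.08, 14.97 and 14.81 in V12, and was 4.34-fold lower (adjusted p = 4.23e-07). The genes with the largest falls were likewise ranked among called genes whose groups do not overlap, so neither property is support for them. Asb2 (a ubiquitin ligase subunit of muscle), Polr2l (a subunit shared by the RNA polymerases), Fxyd1 (phospholemman, a regulator of the sodium pump) and Srp9 (of the signal recognition particle) were 4.43-fold, 4.11-fold, 3.77-fold and 3.68-fold lower.

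Of 19 genes of PGC-1 and mitochondrial biogenesis, 4 (21.1%, against 19.9% of expressed symbols) rose and 1 fell. Gabpa and Nrf1, transcription factors of respiratory genes, rose by 1.36 ± 0.19 and 0.87 ± 0.24 (Nrf1 at an adjusted p of 0.0565 without S-V12 replicate 1 and 0.0628 without V12 replicate 2), Polg, the polymerase of mitochondrial DNA, by 1.14 ± 0.23, and Dnm1l (DRP1), which divides mitochondria, by 1.12 ± 0.17. Tfam, which packages mitochondrial DNA, fell by 0.88 ± 0.20. The coactivator gene Ppargc1a had 7.75, 7.22, 8.50 and 7.95 in S-V12, against 10.55, 8.29, 8.04 and 7.52 in V12. The groups overlapped, and the difference of -0.75 ± 0.43 did not pass (adjusted p = 0.283) and was -0.10 without V12 replicate 1, its highest array. Of 37 genes of fatty acid oxidation, 7 (18.9%, against 19.9% of expressed symbols) rose and 4 fell, and 4 rose without S-V12 replicate 3 or V12 replicate 3 or 4. Ppard, the nuclear receptor PPAR delta, had 12.18, 12.48, 12.43 and 12.32 in S-V12, against 10.31, 10.02, 10.05 and 10.86 in V12, a rise of 2.04 ± 0.29 (adjusted p = 4.51e-05). The members that fell were the oxidation enzyme genes Acadl and Decr1 and the electron carrier genes Etfa and Etfb, by 1.02 ± 0.18, 1.27 ± 0.28, 0.72 ± 0.19 and 1.05 ± 0.25.

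Controls on the arrays also differed between the groups. The mean of 4 poly-A spikes, RNAs added before labeling, was 6.99 ± 0.14 in S-V12 and 6.48 ± 0.37 in V12 (SD, n = 4 each), the median of 399 positive control probe sets 8.96 ± 0.13 in S-V12 and 9.36 ± 0.17 in V12, and that of 1153 negative ones 5.21 ± 0.06 in S-V12 and 5.55 ± 0.05 in V12. The groups did not overlap in these measures (exact permutation test, two-sided p = 0.0286 for each, the smallest that 4 against 4 arrays allow). Their part in the differences of the respiratory and ribosomal genes was not tested.

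Of 28 stretch-sensing and Z-disc genes, 5 (17.9%, against 19.9% of expressed symbols) rose and 1 fell, and 3 rose without S-V12 replicate 2 or 3 or V12 replicate 1. Ankrd1, a titin-bound protein that responds to load, had 19.16, 18.76, 19.18 and 18.86 in S-V12, against 13.32, 16.54, 16.45 and 17.56 in V12. The S-V12 arrays were close together, V12 replicate 1 lay far below its group, and the rise of 3.02 ± 0.77 (adjusted p = 0.00945) was 2.14 without that array. Lmcd1, a LIM protein of the Z-disc, rose by 1.75 ± 0.39, and Smpx, a small cytoskeletal protein, fell by 1.13 ± 0.19. Of 21 synaptic and denervation-response genes, 4 (19%, against 19.9% of expressed symbols) rose and 0 fell. Chrna1, the alpha subunit of the acetylcholine receptor, had 12.51, 12.41, 12.23 and 12.79 in S-V12, against 10.51, 10.32, 10.68 and 10.71 in V12, a rise of 1.93 ± 0.30 (adjusted p = 1e-04). Musk, the kinase that clusters this receptor, rose by 1.68 ± 0.30 and Runx1, a factor induced by denervation, by 2.02 ± 0.32. Klhl40, which stabilizes thin filament proteins, had 12.52, 13.57, 14.23 and 12.21 in S-V12, against 9.52, 10.02, 9.17 and 10.32 in V12, and rose 10.4-fold (adjusted p = 4.57e-06). Among contractile genes, 4 of 13 of fast fibers fell and 0 rose, and 3 of 11 of slow fibers fell and 1 rose. The fast troponin gene Tnni2 fell by 1.01 ± 0.17 and the slow one Tnnc1 by 0.87 ± 0.17. Stac3, which couples the calcium channel to contraction, fell by 1.26 ± 0.21.

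Of 27 genes of the atrophy list, 7 (25.9%, against 19.9% of expressed symbols) rose and 1 fell. The ubiquitin ligase genes that mark muscle atrophy did not pass: Trim63 (MuRF1) averaged 17.60 ± 0.20 in S-V12 and 17.08 ± 0.23 in V12, and Fbxo32 (atrogin-1) 18.63 ± 0.30 in S-V12 and 18.41 ± 0.28 in V12 (SD, adjusted p = 0.22 and 0.601). Foxo3, a transcription factor of these ligases, had 12.50, 12.64, 12.33 and 12.65 in S-V12, against 11.38, 11.12, 11.33 and 11.19 in V12, a rise of 1.27 ± 0.27 (adjusted p = 0.00248). Foxo1, its relative, averaged 16.85 ± 0.17 in S-V12 and 16.06 ± 0.26 in V12 (SD) and did not pass (adjusted p = 0.103, and 0.0317 without CON replicate 4). Of 25 genes of insulin, AKT and AMPK signaling, 7 (28%, against 19.9% of expressed symbols) rose and 1 fell. Prkaa1, a catalytic subunit of AMPK, had 11.50, 11.47, 11.28 and 11.79 in S-V12, against 9.82, 9.05, 9.44 and 9.61 in V12, a rise of 2.02 ± 0.21 (adjusted p = 1.56e-06). The receptor genes Igf1r and Insr rose by 1.95 ± 0.27 and 1.21 ± 0.23, and Pik3ca, of phosphoinositide 3-kinase, by 1.68 ± 0.19, while Prkag1, a regulatory subunit of AMPK, fell by 0.90 ± 0.20. Of 28 genes of autophagy and the lysosome, 8 (28.6%) rose and 5 (17.9%) fell, against 19.9% and 11.7% of expressed symbols. Without S-V12 replicate 2 or V12 replicate 2 or 4, 2 or 3 fell. Ulk1 and Atg13, which start the process, rose by 1.91 ± 0.25 and 1.68 ± 0.24, and Gabarap, which coats the autophagosome, fell by 1.66 ± 0.18. Of 27 genes of apoptosis, 6 (22.2%, against 19.9% of expressed symbols) rose (3 without V12 replicate 4) and 1 fell, namely Cycs, whose product starts the caspase cascade once released. Of the 6 that rose, 3 restrain apoptosis, Bcl2l1 (BCL-XL), Mcl1 and Cflar (c-FLIP), by 1.99 ± 0.22, 1.56 ± 0.19 and 0.78 ± 0.22. The other 3 promote it, Bak1 (a pore former of the mitochondrial membrane), Bcl2l11 (BIM) and Apaf1 (of the apoptosome), by 1.05 ± 0.20, 0.86 ± 0.26 and 0.64 ± 0.20, with Bak1 and Bcl2l11 below background on all V12 arrays. The calls on Bcl2l11 (without S-V12 replicate 1 or 4 or V12 replicate 1 or 4), Apaf1 (without S-V12 replicate 1 or 4 or V12 replicate 1, 2 or 4) and Cflar (without V12 replicate 4) were lost at an adjusted p between 0.0507 and 0.11.

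Most neutrophil and lymphocyte markers were below background, and some macrophage markers were higher in S-V12. Of 15 monocyte and macrophage markers, 4 (26.7%, against 19.9% of expressed symbols) rose and 0 fell. Another 4, Adgre1, Aif1, Fcgr1a and Marco, were below background on all 8 arrays. Lyz2 (lysozyme) had 13.72, 14.29, 13.77 and 14.23 in S-V12, against 12.10, 11.64, 11.99 and 10.94 in V12, a rise of 2.34 ± 0.42 (adjusted p = 0.000509). The list, as log2 of its summed linear signals, lay at 13.99 to 14.60 in S-V12 and 11.79 to 12.88 in V12. Without Lyz2 the sums overlapped, at 11.26 to 12.24 in S-V12 and 10.63 to 11.61 in V12. The scavenger receptor gene Msr1, the lipopolysaccharide coreceptor gene Cd14 and the chemokine receptor gene Ccr2 rose by 1.03 ± 0.25, 1.25 ± 0.32 and 1.37 ± 0.37. Of 13 neutrophil markers, 11 were below background on all 8 arrays, S100a8 among them, and 1, the integrin gene Itgam, rose, being above background on 2 S-V12 arrays and 0 V12 arrays. That list summed to 8.37 to 8.87 in S-V12 and 7.93 to 8.22 in V12. The part of these cells in the inflammatory and matrix genes was not tested.

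Of 9 lymphocyte, 10 endothelial, 7 Schwann cell, 9 liver and 7 satellite cell markers, 0 rose and 0 fell. The summed satellite cell signal did not overlap, at 12.72 to 13.11 in S-V12 and 11.81 to 12.59 in V12, but a linear sum weighs the brightest markers most. The median difference of these 7 markers was -0.06, with 3 above zero and 4 below, and 2 were below background on all 8 arrays. Pdgfra, a growth factor receptor of fibroblasts, rose by 1.77 ± 0.36, the only one of 10 fibroblast markers to pass, and that list summed to 17 to 17.70 in S-V12 and 16.51 to 17.31 in V12. Fabp4, the fatty acid binding protein of adipocytes, had 11.14, 10.17, 9.65 and 10.32 in S-V12, against 12.67, 12.82, 12.24 and 11.67 in V12, and fell by 2.03 ± 0.51 (adjusted p = 0.00837), the only one of 8 adipocyte markers to pass. Of 11 red blood cell markers, 2 fell and 6 were below background on all 8 arrays, and the list summed to 12.18 to 14.08 in S-V12 and 14.52 to 15.83 in V12. Hba-a1, an alpha globin, had 13.27, 13.42, 11.44 and 12.69 in S-V12, against 15.61, 15.20, 14.26 and 14.17 in V12, and fell by 2.11 ± 0.46 (adjusted p = 0.00287). The call on its near copy Hba-a3 (adjusted p = 0.0413) was lost without any 1 of S-V12 replicates 1, 3 and 4 and V12 replicates 1, 2 and 3 (adjusted p between 0.0578 and 0.139), and the probes may not separate these copies. Of 12 markers of smooth muscle and pericytes, 1, Lmod1 (a leiomodin of smooth muscle), fell, by 0.93 ± 0.22. Of 8 mesothelial markers, 0 rose and 1 fell, Bnc1 (a zinc finger factor), which was below background on all 8 arrays. The mesothelial list summed to 10.7 to 11.68 in S-V12 and 11.78 to 12.17 in V12, with no overlap.

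**Figure D3:**
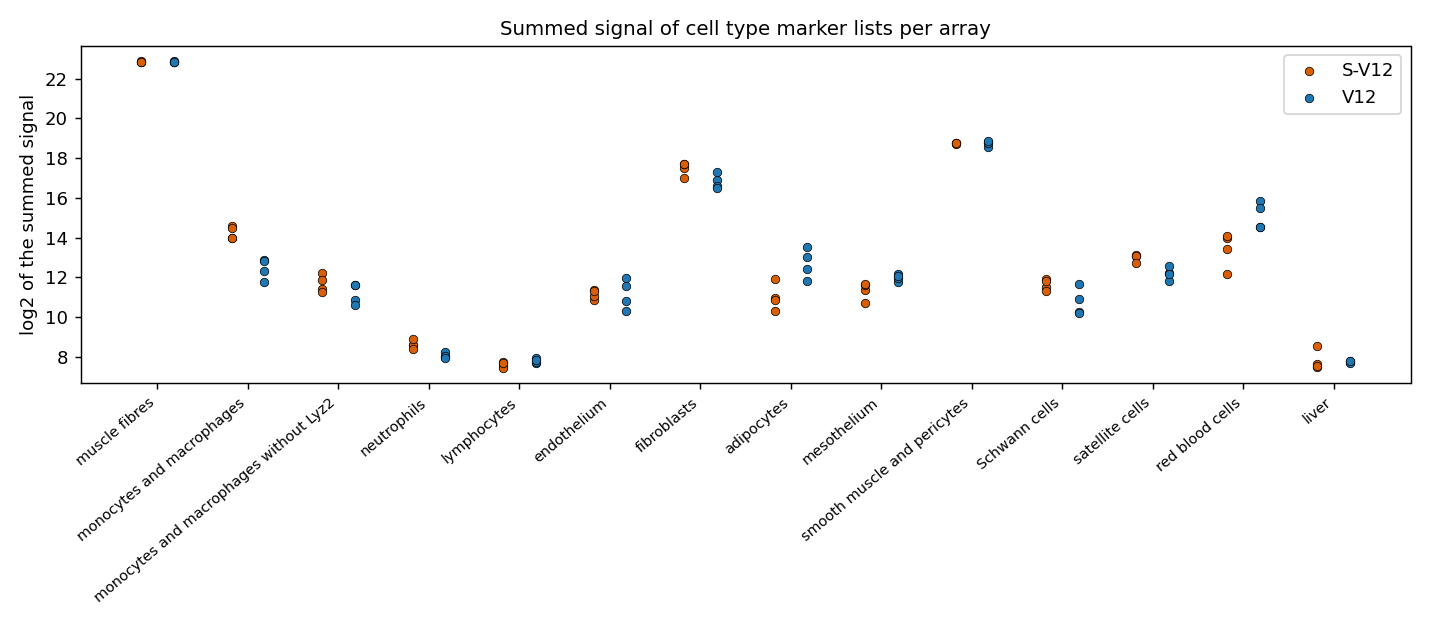
Log2 of the summed linear signal of each cell type marker list (y axis; lists along the x axis) on each S-V12 array (orange) and V12 array (blue). Muscle fiber markers sum to 22.85 to 22.88 in S-V12 and 22.83 to 22.87 in V12, and the macrophage sums, which do not overlap with Lyz2, overlap without it.

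E-V12 rats had the same operation and oxygen as S-V12 rats plus stimulation, and in E-V12/S-V12 277 clusters (1.19%) were higher and 351 (1.51%) lower at an adjusted p under 0.05. In V12/CON, 1780 (7.68%) were higher and 2011 (8.67%) lower. These comparisons share arrays with S-V12/V12, so each is given by its own values. Of the 36 IL-6 and STAT3 genes, E-V12/S-V12 called 0 higher and 0 lower, and 15 were higher and 4 lower in V12/CON. The mean of the list per array was 8.76 to 9.21 in E-V12, 9.08 to 9.39 in S-V12, 7.76 to 8.22 in V12 and 6.84 to 7.0 in CON. Socs3 averaged 10.71 ± 1.35 in E-V12, 12.18 ± 1.09 in S-V12, 6.85 ± 0.40 in V12 and 5.45 ± 0.15 in CON (SD, n = 4 each), and its difference of -1.47 between E-V12 and S-V12 did not pass (adjusted p = 0.108). Of the 30 immediate early genes, E-V12/S-V12 called 0 higher and 3 lower, with Jun at a difference of -1.48 (adjusted p = 0.00909).

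Of the 83 respiratory genes, E-V12/S-V12 called 25 higher and 0 lower, with a median of 0.58, and 2 were higher and 13 lower in V12/CON, with a median of -0.15. Their mean per array was 13.23 to 13.47 in E-V12, 12.66 to 13.08 in S-V12, 13.59 to 13.83 in V12 and 13.37 to 14.11 in CON, where replicate 1 was lowest. Of the 68 genes of the cytosolic ribosome, E-V12/S-V12 called 27 higher and 0 lower, and 9 were higher and 0 lower in V12/CON. Their mean was 13.48 to 13.84 in E-V12, 12.66 to 13.07 in S-V12, 13.31 to 13.95 in V12 and 12.38 to 13.72 in CON, again with replicate 1 of CON lowest. The poly-A spikes averaged 5.98 ± 0.19 in E-V12, 6.99 ± 0.14 in S-V12, 6.48 ± 0.37 in V12 and 7.09 ± 0.40 in CON (SD). The median of the positive controls was 9.22 ± 0.11 in E-V12, 8.96 ± 0.13 in S-V12, 9.36 ± 0.17 in V12 and 9.42 ± 0.22 in CON. The group means of the respiratory genes had this order, and those of the cytosolic ribosome, highest in E-V12, did not. A link of either list to the controls was not tested. The median of the negative controls was 5.13 ± 0.04 in E-V12, 5.21 ± 0.06 in S-V12, 5.55 ± 0.05 in V12 and 5.14 ± 0.16 in CON.

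**Figure D4:**
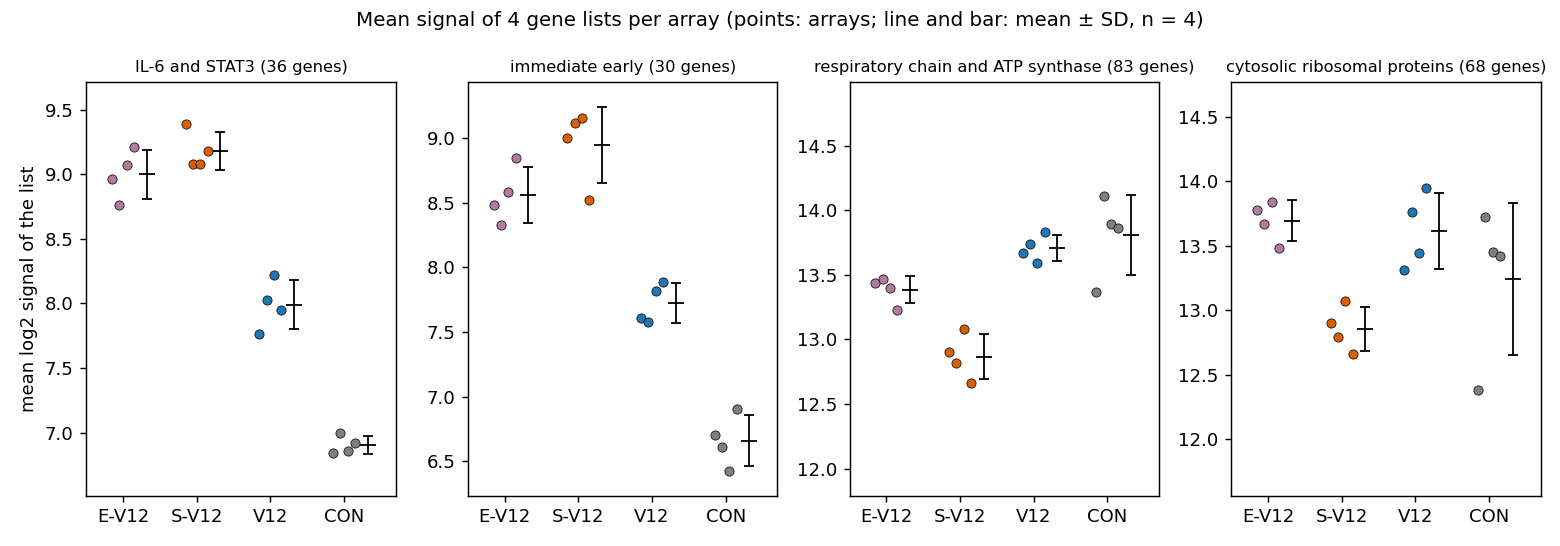
Mean log2 signal (y axis) of 4 gene lists on every array of E-V12, S-V12, V12 and CON, with the group mean and SD (n = 4 each). The respiratory list lies at 12.66 to 13.08 on the S-V12 arrays, below every array of the other groups, and the IL-6 and STAT3 list is higher on all S-V12 and E-V12 arrays than on any V12 or CON array.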

How the data were processed

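RNA from 16 diaphragms was hybridized to Rat Clariom S arrays. The deposited values are log2 signals per transcript cluster, which the authors normalized on total array intensity by SST-RMA in Transcriptome Analysis Console; no build of the annotation is given in the sources used here. Control probe sets were left out of the tests. Group means of all 16 arrays were fitted with limma 3.58.1 in R 4.3.3 (lmFit and eBayes), and the S-V12 minus V12 contrast was adjusted by Benjamini-Hochberg over 23188 clusters. SEs come from this model and SDs from 4 arrays. The scripts were tested on simulated data. Symbols came from the platform annotation, each represented by its cluster of highest mean signal (15037 symbols), and 8139 clusters had no symbol. Normalization to a common array scale makes every difference relative to the other genes of the array, and the scale ends near its top signals, where differences are compressed.

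The genes named were those the paper names for this contrast, the 15 largest changes each way among called genes whose groups do not overlap, up to 6 called members of each list, their partners and all cell type markers. The members and lists were chosen with earlier results of these data known. Rats were separate animals, 1 array each.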

Additional observations from a re-analysis of the deposited data

Results flagged for a closer look

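The arrays of each group were checked, for every gene whose difference the text gives, for 1 array far from the other 3, meaning that its gap to the nearest took up more than the 95% critical share of the group's range in Dixon's test. Of 306 groups of 4 arrays, 18 (5.88%) held such an array, where chance gives about 1 in 20. The log2 signals on S-V12 replicate 1 that stood apart were Thbs1 at 14.62 (others 11.10 to 11.40), Jun at 10.80 (others 11.26 to 11.32) and Nrf1 at 11.18 (others 10.77 to 10.81). On S-V12 replicate 3 the gene that stood apart was Lmcd1 at 13.95 (others 12.58 to 12.60). S-V12 replicate 4 stood apart in Srxn1 at 11.02 (others 12.96 to 13.07) and Pfkfb3 at 14.04 (others 14.52 to 14.62). V12 replicate 1 stood apart more often, in Rrad at 7.90 (others 11.38 to 12.03), Lifr at 11.17 (others 9.84 to 10.04), Jak2 at 11.19 (others 11.85 to 11.90), Fgg at 9.57 (others 10.79 to 11.04), Mapk14 at 14.51 (others 15.30 to 15.39) and Hspb1 at 14.12 (others 16.14 to 16.28). On V12 replicate 3 the genes were Cebpd at 13.83 (others 13.43 to 13.46) and Hmox1 at 11.77 (others 10.35 to 10.59). V12 replicate 4 differed in Maff at 9.45 (others 8.27 to 8.46), Slc6a6 at 12.74 (others 12.09 to 12.19), Gpx4 at 15.06 (others 14.49 to 14.55) and Rpl27 at 14.32 (others 14.10 to 14.14). V12 replicate 1 held 6 of the 18 and was also the array farthest from its group over all clusters. No explanation of these values was tested.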

How the results depend on the processing

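The counts of called clusters were recomputed under 27 alternatives and under other thresholds, and stayed within 1.5 times of those given except in 3 settings. With 1 cluster per symbol, which tests fewer clusters, 984 were lower by adjusted p and 336 lower by fold. With a fold of 2 added to the adjusted p, 879 were higher and 544 lower, and with a fold of 1.5 and the unadjusted p, 2310 were higher and 2142 lower. Leaving out each of the 16 arrays in turn gave 1485 to 2070 higher and 1162 to 1773 lower by adjusted p, and 868 to 973 higher and 556 to 664 lower by fold. The methods' t-test gave 1442 higher and 1038 lower by adjusted p. Tukey biweight averages, another of the alternatives, replaced the group means and kept the main p-values. By adjusted p they could therefore change a call only in its direction. By fold they gave 925 higher and 631 lower, the same counts as the paper states for S-V12/V12. Same-numbered arrays of the groups did not deviate together (correlations of -0.084 to -0.043). These values show no pairing in the signals, but cannot tell whether same-numbered rats were handled together. With a replicate block 1891 were higher and 1508 lower by adjusted p and 897 and 556 by fold. Of 147 named genes with a call, 117 kept it under every alternative that tested them and 125 under the methods' t-test. No gene changed direction in any setting that tested it. With clusters above background only, 138 held, and the others were left out by that filter rather than tested. Array median centring and quantile normalization moved the median of all clusters to 0.02 and -0.01, against -0.05, and 145 of the 147 calls held under each. Foxo1, not called, passed with the S-V12 and V12 arrays alone (adjusted p = 0.0107) and with the methods' t-test (0.0294), and Ankrd1 was lost with trended robust variances (0.0644). Counts of list members under the methods' t-test, the block and the S-V12 and V12 arrays alone were added after seeing the data; with the t-test 17 mitochondrial ribosomal genes fell, against 27. Signals near background bound the folds of low genes, and 4 rats a group limit the precision.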

Other observations

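Glucocorticoid and clock genes, which respond to stress hormones and to the time of day, were not part of the comparison above. Of 18 glucocorticoid targets, 3 (16.7%, against 19.9% of expressed symbols) rose and 0 fell in S-V12/V12, with a median difference of 0.22. Sgk1, a kinase induced by corticosteroids, had 14.11, 14.06, 14.85 and 14.73 in S-V12, against 10.58, 12.33, 12.03 and 13.30 in V12, a rise of 2.38 ± 0.42 (limma, adjusted p = 0.000483). Errfi1, an inhibitor of epidermal growth factor receptors, rose by 1.73 ± 0.30, and Dusp1 was the other member that rose. In V12/CON, 13 of these 18 genes were higher and 1 lower, with a median of 2.49. Of 18 clock genes, 4 (22.2%, against 19.9% of expressed symbols) rose and 0 fell in S-V12/V12. Cry2, a repressor of the clock, had 10.08, 10.03, 10.42 and 9.88 in S-V12, against 8.59, 8.98, 8.54 and 8.45 in V12, a rise of 1.46 ± 0.26 (limma, adjusted p = 0.000395), and Bhlhe40, another repressor, rose by 1.09 ± 0.28. The calls on Sgk1 and Bhlhe40 were lost under the methods' t-test.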
